A study of Mus musculus with 4 samples.

Results

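Glucose uptake, glycolysis and the handling of lactate were followed through 34 genes in the brown adipose tissue (BAT) of Sox4f/f and Sox4-MKO mice. The genes were chosen by symbol from the known sugar transporters of the Slc2a family, the enzymes from hexokinase to lactate dehydrogenase, the enzymes that set the pace of phosphofructokinase, and the monocarboxylate transporters that carry lactate. They are 34 of the 55287 gene symbols listed for each library. The rule names symbols and uses no measured value, although it was written with earlier results of these data known.

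RNA sequencing was performed on BAT of male mice aged 15 weeks, with 2 mice of each genotype and 1 library per mouse. The controls carried loxP-flanked Sox4 alleles (Sox4f/f, given as wild type in the sample labels), and the Sox4-MKO mice were their littermates with the same alleles and a Cre recombinase under the control of Myf5, on a C57BL/6 background. Myf5 is active in the precursors of brown adipocytes and also in those of skeletal muscle, so both tissues carry the deletion. Values are in FPKM, fragments scaled to transcript length and to the mapped total of the library, which can be set side by side between genes.

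Sox4 itself was listed at 1.98 and 1.06 FPKM for Sox4f/f, and at 0.98 and 3.06 for the mice labelled Sox4-MKO. The library labelled Sox4-MKO 1 thus lay below both controls and that labelled Sox4-MKO 2 above both. The log2 fold change was 0.20 (SE 0.43), so the deleted gene was not consistently lower under that label in this tissue RNA. The paper reports strongly reduced SOX4 protein in BAT of younger Sox4-MKO mice. Every direction given here follows the labels. An approximate depth of 12200000 to 16900000 fragments per library was estimated from the lowest values of genes with 1 transcript. At that depth, 1 FPKM on 1 kilobase of transcript stands for about 12.2 to 16.9 fragments.

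Skeletal muscle RNA differed widely between the libraries. The summed level of 24 fibre markers, such as actin Acta1 and muscle creatine kinase Ckm, was 354 and 1203 FPKM in Sox4f/f mice 1 and 2. It was 22295 FPKM in the library labelled Sox4-MKO 1 and 4518 FPKM in the library labelled Sox4-MKO 2. None of the 24 was listed at 0 in any library, and all 24 had a positive log2 fold change. In tissue RNA, a change in the amount of a cell type and a change in RNA per cell cannot be told apart. Of 7 brown adipocyte markers, 5 were called lower at an unadjusted p under 0.05 by limma, among them Ucp1 and Cidea, and Dio2 and Elovl3 were not. Their summed level was 8145, 7913, 4156 and 4781 FPKM in the same order, and none was listed at 0. The summed level of 8 macrophage markers was 196, 286, 397 and 396 FPKM, that of 5 fibroblast markers 283, 324, 707 and 647 FPKM, and that of 5 red cell markers 841, 1230, 1554 and 1018 FPKM. The part of these cell types in the differences below was not tested.

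Glucose enters cells through facilitative transporters and is trapped by hexokinase. The preparatory enzymes split it into triose phosphates, and the payoff enzymes turn these into pyruvate with a gain of ATP. Pyruvate is oxidised in mitochondria or reduced to lactate, which leaves or enters the cell through monocarboxylate transporters. Brown fat is known for rapid glucose uptake when it is activated by cold or insulin. Several steps have an isoform that prevails in skeletal muscle, namely Pfkm for phosphofructokinase, Pgam2 for phosphoglycerate mutase, Eno3 for enolase and Aldoa for aldolase. Pfkfb1, which has liver and muscle transcripts, was grouped with these.

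The stretches just upstream of 4 of the genes are shown because the 2 muscle genes Pgam2 and Eno3 had the largest positive fold changes of the 34 genes, whereas Pgam1, which encodes the same enzyme as Pgam2 in other tissues, and Hk2, at the head of the pathway, were lower in both libraries labelled Sox4-MKO. The sequences are those of RefSeq on build GRCm38.p6, 250 bases that end at the start site, written 5′ to 3′ on the strand of the gene. They lie at chr11:5803797-5804046 on the minus strand for Pgam2, at chr11:70656926-70657175 on the plus strand for Eno3, at chr19:41911621-41911870 on the plus strand for Pgam1 and at chr6:82774455-82774704 on the minus strand for Hk2. Capitals mark matches to CAGCTG or CACCTG, 2 forms of the E-box that myogenic factors bind, and to ACGTG, the core that hypoxia-inducible factors bind.
Pgam2: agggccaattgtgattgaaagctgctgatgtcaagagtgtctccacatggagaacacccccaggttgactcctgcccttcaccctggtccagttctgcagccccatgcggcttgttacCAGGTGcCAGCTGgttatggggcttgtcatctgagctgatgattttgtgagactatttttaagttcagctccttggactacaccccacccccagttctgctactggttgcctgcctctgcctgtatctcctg
Eno3: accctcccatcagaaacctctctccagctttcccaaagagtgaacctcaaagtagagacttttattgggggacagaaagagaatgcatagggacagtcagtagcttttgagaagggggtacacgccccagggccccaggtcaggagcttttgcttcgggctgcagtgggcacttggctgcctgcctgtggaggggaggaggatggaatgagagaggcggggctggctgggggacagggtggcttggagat
Pgam1: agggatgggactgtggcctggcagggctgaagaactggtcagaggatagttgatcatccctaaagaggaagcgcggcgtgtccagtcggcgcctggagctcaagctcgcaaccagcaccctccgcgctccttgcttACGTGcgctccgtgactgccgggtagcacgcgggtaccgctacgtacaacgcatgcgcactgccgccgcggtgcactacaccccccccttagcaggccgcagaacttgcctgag
Hk2: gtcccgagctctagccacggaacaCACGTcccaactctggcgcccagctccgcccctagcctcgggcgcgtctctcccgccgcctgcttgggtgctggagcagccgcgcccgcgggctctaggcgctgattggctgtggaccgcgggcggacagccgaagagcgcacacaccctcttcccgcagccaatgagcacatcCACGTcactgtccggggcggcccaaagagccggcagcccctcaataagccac
The Pgam2 stretch held 1 match to CAGCTG and 1 to CACCTG, 1 base apart, and no match to ACGTG. The Eno3 stretch held none of the 3 motifs. Pgam1 had 1 match to ACGTG and Hk2 had 2. Both strands were searched, so that the capitals CAGGTG and CACGT are CACCTG and ACGTG read on the other strand, and no matches overlapped in these 4 stretches. Of all 32851 RefSeq promoters of this length, 13% held CAGCTG, 17.2% held CACCTG and 16.6% held ACGTG. RefSeq listed 49 starts for 32 of the 34 genes, and 6, 7 and 18 of these 49 stretches held the same motifs. A match is a description of the letters and does not show binding.

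The first comparison asked which of these genes differed between the genotypes. The test was limma on log2(FPKM + 1), a scale on which fold changes of low genes come out too small. It was run on the 12877 genes whose mean passed 1 FPKM in either genotype, 31 of the 34 among them. A gene was called where its unadjusted p was under 0.05, and this held for 10 of the 31 (32.3%), against 16.2% of all genes tested. Of these, 3 were higher under the Sox4-MKO label (Slc2a5, Pgam2 and Eno3), where the share over all genes was 7.95%. The other 7 were lower (Slc2a1, Slc2a8, Hk2, Pfkl, Pfkfb3, Pgam1 and Ldhb), where that share was 8.28%. After Benjamini-Hochberg adjustment over all genes tested, limma called 0 genes, against 2090 at an unadjusted p under 0.05, and the smallest adjusted p was 0.191. An exact two-sided permutation test with 2 mice against 2 cannot give a p below 0.333. The 2 genotypes did not overlap at 15 of the 31 genes, against 51.3% of all genes tested, so the absence of overlap was no more common here than elsewhere. At 7 of these 15 genes both libraries labelled Sox4-MKO were lower (29.6% of all genes tested), and at 8 both were higher (21.7%).

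The count of calls depended on how the libraries were scaled. The deposited FPKM summed to 578011 and 544564 in Sox4f/f, and to 495145 and 472062 in the libraries labelled Sox4-MKO. Muscle markers made up 0.06% to 4.50% of these totals. Rescaling each library to a common sum without the muscle markers therefore also evened out unequal totals. The part of the totals was not separated from that of the markers. Under this scaling the median log2 fold change of all genes moved from -0.05 to 0.17, and 6 of the genes were called higher and 1 lower. Over all genes the split of 1024 higher and 1066 lower genes became 2058 and 258. Rescaling without mitochondrially encoded genes and Ucp1 gave 4 genes higher and 6 lower. Under the scaling without muscle markers, 6 of the 7 genes called lower lost the call, with log2 fold changes of -0.28 for Slc2a1, -0.37 for Slc2a8, -0.18 for Hk2, -0.33 for Pfkl and -0.34 for both Pgam1 and Ldhb. Pfkfb3 was still called, at -0.85. Relative to the median of all genes tested, the 7 genes moved little from the deposited scale. Slc2a1 went from -0.44 to -0.45, Slc2a8 from -0.55 to -0.53 and Hk2 from -0.38 to -0.35. Pfkl went from -0.53 to -0.50, Pgam1 from -0.54 to -0.51, Ldhb from -0.54 to -0.50 and Pfkfb3 from -1.05 to -1.02. The same 7 were called lower under a common median and under quantile normalization (17.7% and 16.2% of all genes called).

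**Figure D1:**
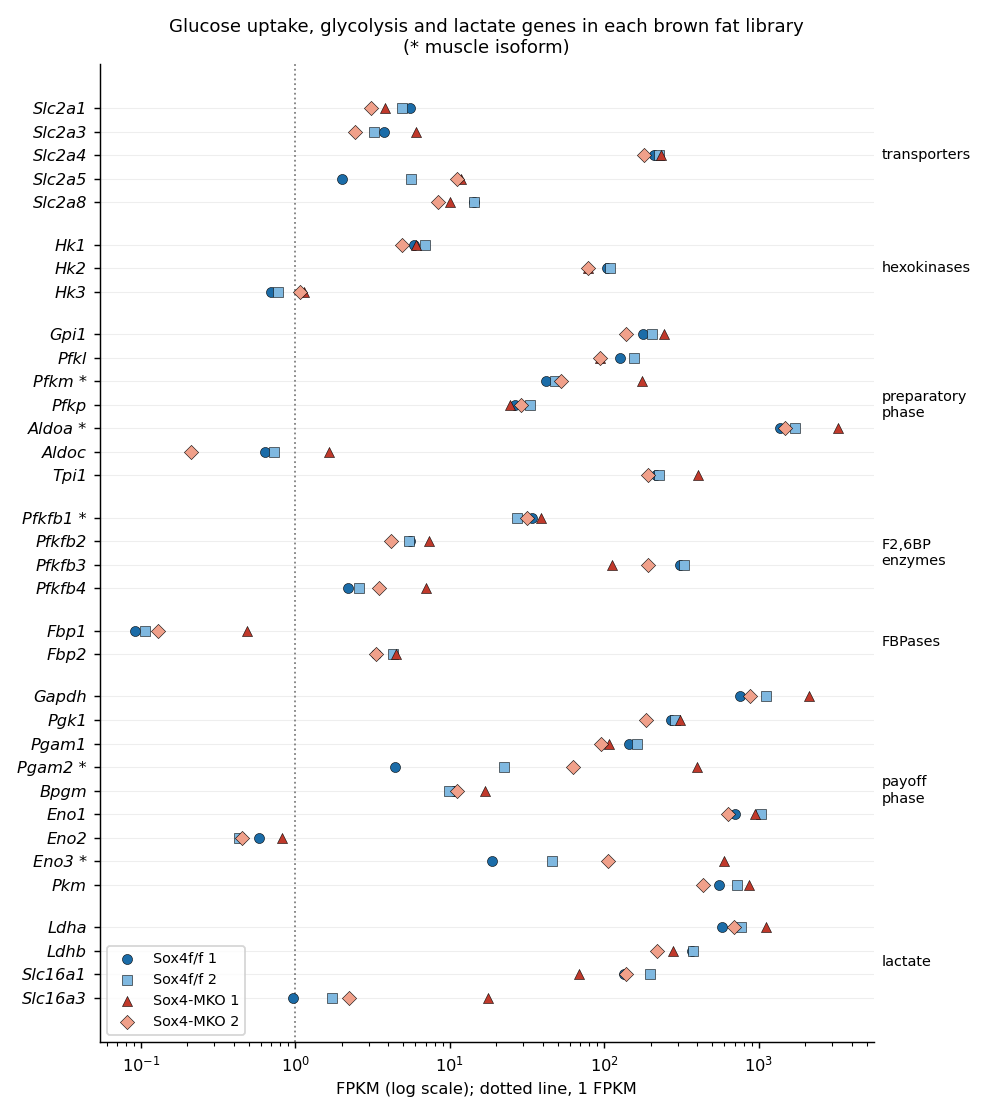
Level of each of the 34 genes in FPKM on a log axis, with 1 point per library and the genes grouped by their role (F2,6BP, the sugar bisphosphate that activates phosphofructokinase; FBPases, fructose bisphosphatases). The library labelled Sox4-MKO 1 (red triangles) stands to the right at Pgam2, Eno3, Pfkm, Slc16a3, Aldoa and Gapdh, whereas both libraries labelled Sox4-MKO lie to the left of Sox4f/f at Hk2, Pfkl, Pgam1, Ldhb and Pfkfb3.

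Among the transporters, the insulin-responsive Slc2a4 (GLUT4) was by far the most abundant. It had 209.9 and 227 FPKM in Sox4f/f, then 232 and 179.6 under the Sox4-MKO label. The genotypes overlapped, and the log2 fold change of -0.10 had a 95% confidence interval from -0.53 to 0.33. Its direction turned without the library labelled Sox4-MKO 2 (0.08) and after rescaling without muscle markers (0.15). Relative to the median of all genes tested, the rescaled value was -0.01.
The other glucose transporters were low. Slc2a1 (GLUT1), which serves basal uptake in most cells, had 5.49 and 4.94 FPKM in Sox4f/f versus 3.82 and 3.08. The log2 fold change of -0.49 (SE 0.18) was called close to the threshold (adjusted p = 0.304 by limma), and the call was lost with any 1 library left out, with values between -0.61 and -0.37. Slc2a8 (GLUT8), an intracellular member of the family, had 14.3 and 14.4 FPKM in Sox4f/f, then 10.02 and 8.34 under the other label. Its log2 fold change was -0.60 (SE 0.15, adjusted p = 0.224 by limma), and it was not called without Sox4f/f mouse 1, without Sox4f/f mouse 2 or without the library labelled Sox4-MKO 2.
Slc2a3 (GLUT3), a high-affinity transporter of neurons, had 3.73 and 3.22 FPKM in Sox4f/f versus 6.01 and 2.45, so that the libraries labelled Sox4-MKO lay on either side of the controls. The fitted difference was 0.14 on the log2 scale, and -0.38 without the library labelled Sox4-MKO 1.
Slc2a5 (GLUT5) carries fructose rather than glucose and was the only sugar transporter called higher. It had 2.01 and 5.60 FPKM in Sox4f/f, then 11.7 and 11.1 under the Sox4-MKO label. These 2 libraries were nearly equal, and the spread lay within Sox4f/f. Means (± SD, n = 2) were 3.81 ± 2.54 and 11.4 ± 0.42 FPKM. The log2 fold change of 1.48 (SE 0.40, adjusted p = 0.231 by limma) was 0.91 without Sox4f/f mouse 1 and 2.05 without Sox4f/f mouse 2, and it was called in both cases. With only 1 of the libraries labelled Sox4-MKO it was about as large, at 1.45 and 1.52, but not called.

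Hexokinase traps glucose as glucose 6-phosphate inside the cell. Hk2, the isoform of insulin-sensitive tissues, held nearly all hexokinase mRNA, with 104 and 109 FPKM in Sox4f/f, then 78.8 and 79.0 under the Sox4-MKO label. Both of the latter lay below both controls and were nearly the same. The mean (± SD, n = 2) in FPKM was 107 ± 3.45 in the controls and 78.9 ± 0.16 in the others, and the log2 fold change was -0.43 (SE 0.11, adjusted p = 0.222 by limma). Without either library labelled Sox4-MKO it was -0.43 and still called, and it was not called without Sox4f/f mouse 1 or mouse 2. After rescaling without muscle markers, which also evened out the totals, it was -0.18 and not called. Relative to the median of all genes tested, it was -0.38 before and -0.35 after this rescaling. Hk1, the ubiquitous isoform, had 5.84 and 6.92 FPKM versus 6.07 and 4.91, with a log2 fold change of -0.19 and a 95% interval from -0.67 to 0.30. Hk3, an isoform of leukocytes, had 0.70 and 0.77 FPKM in Sox4f/f and 1.14 and 1.07 FPKM in the others. It entered the test only through the higher group, and its log2 fold change of 0.28 was not called.

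Of the next enzymes, Pfkl was lower in both libraries labelled Sox4-MKO, and the others had mixed patterns. Pfkl, the liver-type phosphofructokinase and the main isoform in the controls, had 127 and 155 FPKM in Sox4f/f versus 93.7 and 93.3. The mean (± SD, n = 2) in FPKM was 141 ± 20.1 in the controls and 93.5 ± 0.31 in the others, and the log2 fold change was -0.58 (SE 0.14, adjusted p = 0.216 by limma). It was between -0.73 and -0.44 with each library left out, and not called without Sox4f/f mouse 2.
The muscle type Pfkm, on chromosome 15 of GRCm38 from 98092589 to 98132451, had 42.2 and 47.7 FPKM in Sox4f/f, with 177 and 52.4 in the libraries labelled Sox4-MKO 1 and 2. Only the first of these stood clear of the controls. The log2 fold change of 1.09 was not called, and it was 0.22 without that library and 1.95 without the other, where it was called. Pfkp, the platelet type, overlapped between the genotypes at 26.6 and 32.9 FPKM versus 24.5 and 29.1. The log2 value of -0.14 had a 95% interval from -0.59 to 0.31, and was 0.10 after rescaling without muscle markers. Relative to the median of all genes tested, the rescaled value was -0.07.
Aldoa, the aldolase of muscle and most other tissues, was the most abundant of the 34 genes in every library and ranked between 9 and 37 among all rows. It had 1383 and 1719 FPKM in Sox4f/f, 3279 FPKM in the library labelled Sox4-MKO 1 and 1477 FPKM in that labelled Sox4-MKO 2. The second therefore lay between the controls. Aldoa is listed on a second row with at most 0.24 FPKM, which was left out. At 0.51, its log2 fold change was not called (95% interval from -0.57 to 1.59), and was -0.06 without the library labelled Sox4-MKO 1.
Tpi1, which interconverts the triose phosphates, had 217 and 226 FPKM in Sox4f/f versus 402 and 192, and Gpi1, the isomerase ahead of phosphofructokinase, had 178 and 205 FPKM versus 244 and 138. In both genes the library labelled Sox4-MKO 1 was above and that labelled Sox4-MKO 2 below both controls. Aldoc, the brain aldolase, was below the limit of the test, with 0.64 and 0.72 FPKM versus 1.66 and 0.21.

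The Pfkfb enzymes make and remove the sugar bisphosphate that activates phosphofructokinase. Pfkfb3, on chromosome 2 from 11471433 to 11554077, was the most abundant of the family and had the largest decrease among the genes called. It had 309 and 327 FPKM in Sox4f/f, 113 FPKM in the library labelled Sox4-MKO 1 and 193 FPKM in that labelled Sox4-MKO 2. Both were below the controls, and they differed more from each other than the controls did. The mean (± SD, n = 2) in FPKM was 318 ± 12.8 in the controls and 153 ± 57.1 in the others, and the log2 fold change was -1.10 (SE 0.28, adjusted p = 0.222 by limma). It was -0.71 without the library labelled Sox4-MKO 1 and -1.49 without that labelled Sox4-MKO 2, called in both cases, and it was not called without Sox4f/f mouse 1 or mouse 2. Pfkfb3 was the one gene of the 34 still called lower after rescaling without muscle markers (-0.85).
The remaining members of the family had other patterns. Pfkfb4 had 2.198 and 2.57 FPKM in Sox4f/f versus 7.04 and 3.497, without overlap. With 0.83 on the log2 scale, it just missed the threshold, and it was called under 6 of 15 alternatives, among them both other pseudocounts. Pfkfb1 had 33.96 and 27.4 FPKM versus 39.1 and 31.4 and Pfkfb2 had 5.57 and 5.47 FPKM versus 7.34 and 4.15. Both overlapped between the genotypes, with 95% intervals from -0.28 to 0.67 and from -0.71 to 0.73.
The fructose bisphosphatases, which run the phosphofructokinase step in reverse during gluconeogenesis, were low. Fbp2, the muscle type, had 3.32 and 4.27 FPKM versus 4.52 and 3.33, and overlapped between the genotypes. Fbp1, the liver type, had 0.09 and 0.11 FPKM versus 0.49 and 0.13 and was not tested.

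**Figure D2:**
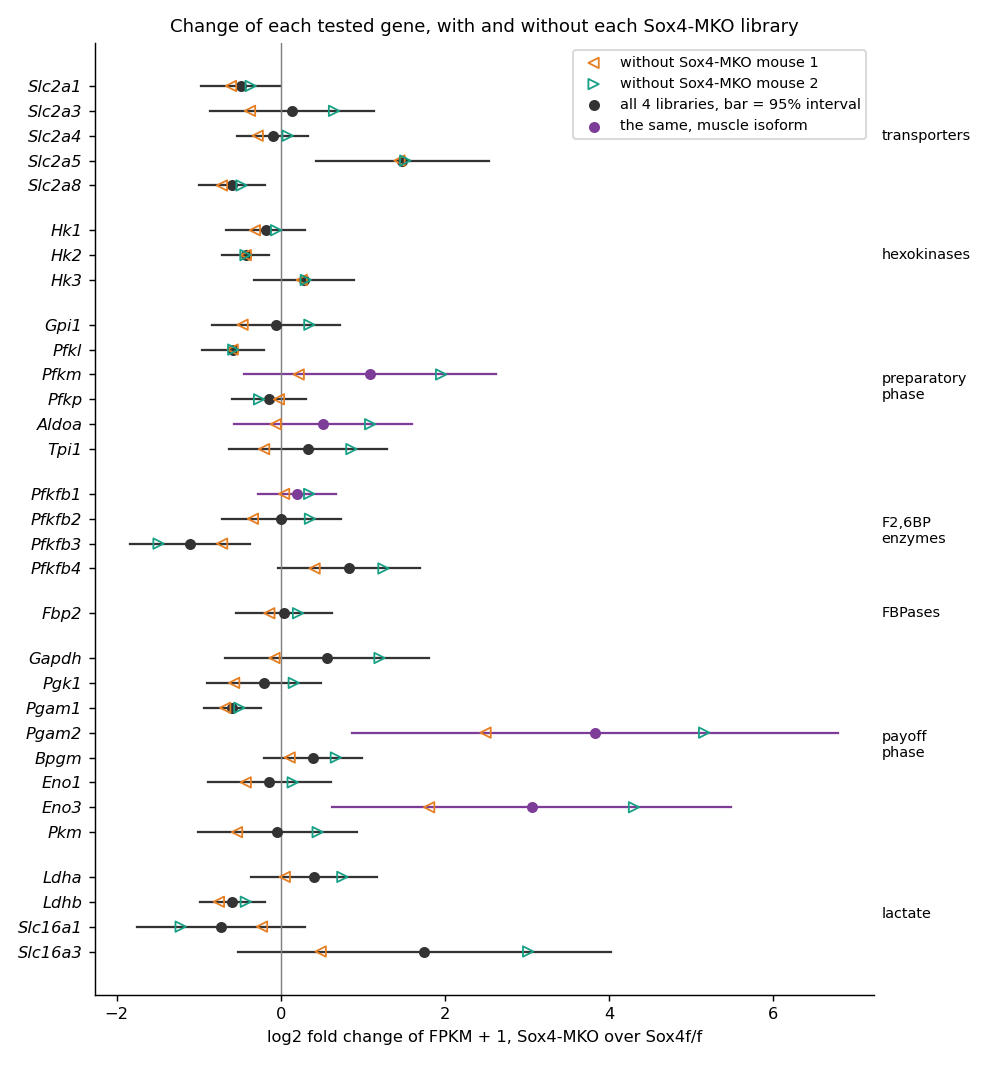
Log2 fold change of FPKM + 1 of the 31 tested genes, Sox4-MKO over Sox4f/f, with 95% intervals from limma (filled points, muscle isoforms in purple) and the values without 1 of the libraries labelled Sox4-MKO (open triangles). The open triangles nearly coincide at Hk2, Pfkl, Pgam1 and Slc2a5, and lie far apart at Pgam2, Eno3, Pfkm and Slc16a3.

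In the payoff phase, the widest contrast was between the isoforms of phosphoglycerate mutase. Pgam1, the ubiquitous isoform, had 144 and 163 FPKM in Sox4f/f, then 108 and 95.4 under the Sox4-MKO label. Means (± SD, n = 2) were 154 ± 13.4 and 102 ± 8.70 FPKM. The log2 fold change of -0.59 had the smallest p of the 34 genes (SE 0.13, adjusted p = 0.214 by limma), and it was not called without Sox4f/f mouse 2.
Pgam2, the muscle isoform, on chromosome 11 from 5801640 to 5803733, had 4.42 and 22.4 FPKM in Sox4f/f, with 401 and 62.5 in the libraries labelled Sox4-MKO 1 and 2. Means (± SD, n = 2) were 13.4 ± 12.7 and 232 ± 239 FPKM, a ratio of 17.3 and the largest of the 34 genes. The log2 fold change was 3.82 (SE 1.12, adjusted p = 0.244 by limma). It ranged from 2.49 without the library labelled Sox4-MKO 1 to 5.16 without that labelled Sox4-MKO 2, and was not called without the former or without Sox4f/f mouse 1, where it was 2.77. The summed muscle markers had the same order of libraries and differed 17.2 times between the genotype means, and their part in the level of Pgam2 was not tested. As a description, there were 16.7 and 19.4 FPKM of Pgam2 per 100 FPKM of Ckm in Sox4f/f, and 22.8 in each of the libraries labelled Sox4-MKO.
Eno3, the muscle enolase, had the same order, with 18.8 and 45.8 FPKM in Sox4f/f, with 600.0 and 106 in the libraries labelled Sox4-MKO 1 and 2. Its log2 fold change was 3.05 (SE 0.92, adjusted p = 0.247 by limma), or 1.81 without the library labelled Sox4-MKO 1, 2.43 without Sox4f/f mouse 1 and 3.67 without Sox4f/f mouse 2, and it was called in none of these 3 cases. Per 100 FPKM of Ckm there were 71.3 and 39.6 FPKM of Eno3 in Sox4f/f and 34.2 and 38.6 FPKM in the others. The same ratio was 159.7 and 41.2 against 10.06 and 19.2 for Pfkm, and 3.64 and 1.49 against 1.005 and 0.82 for Slc16a3. For Aldoa it was 5231 and 1484 against 187 and 539.8. Eno3 and these 3 genes were thus lower per Ckm under the Sox4-MKO label. Ckm itself had 26.4 and 116 FPKM in Sox4f/f and 1755 and 274 in the others. The ratio falls for any gene that rose less than Ckm, so it draws no distinction between these genes.
Eno1, the ubiquitous enolase, had 705 and 1036 FPKM in Sox4f/f versus 945 and 636, with an overlap of the genotypes and a 95% interval of the log2 fold change from -0.89 to 0.61. Eno2, the neuronal enolase, stayed below 1 FPKM in all 4 libraries, at 0.59, 0.44, 0.82 and 0.45 FPKM, and was not tested.

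Gapdh, which oxidises the triose phosphate and often serves as a reference gene, had 759 and 1114 FPKM in Sox4f/f, 2118 FPKM in the library labelled Sox4-MKO 1 and 872 FPKM in that labelled Sox4-MKO 2. The spread within either genotype was wide. A log2 fold change of 0.56 had a 95% interval from -0.68 to 1.81, and was -0.08 without the library labelled Sox4-MKO 1 and 1.202 without the other, where it was called.
Pgk1, the first ATP-yielding enzyme, had 269 and 288 FPKM versus 311 and 187. Pkm, the pyruvate kinase of muscle and most other tissues, had 549 and 726 FPKM versus 862 and 436. In both genes the library labelled Sox4-MKO 1 was above and that labelled Sox4-MKO 2 below both controls, as in Gpi1 and Tpi1. Without the library labelled Sox4-MKO 1, Pgk1 (-0.57) and Gpi1 (-0.47) were called lower. Bpgm, which makes the phosphate ester that lowers oxygen binding of haemoglobin in red cells, had 10.6 and 9.95 FPKM versus 17.0 and 11.2, and its log2 fold change of 0.39 was not called. Mouse genomes hold many processed copies of Gapdh, Aldoa, Pgk1, Ldha and Eno1, and how reads shared with such copies were assigned is not given in the sources used here, so the levels of these genes are less certain.

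Lactate dehydrogenase has a subunit typical of muscle, encoded by Ldha, and one typical of heart, encoded by Ldhb. Ldhb had 371 and 375 FPKM in Sox4f/f versus 277 and 221, both below the controls. The mean (± SD, n = 2) in FPKM was 373 ± 2.74 in the controls and 249 ± 40.0 in the others, and the log2 fold change was -0.59 (SE 0.15, adjusted p = 0.224 by limma). It was called without either library labelled Sox4-MKO, at -0.75 and -0.43, and not called without Sox4f/f mouse 1 or mouse 2. Ldha had 576 and 772 FPKM versus 1122 and 690.2 and overlapped between the genotypes, with a log2 fold change of 0.40 and a 95% interval from -0.37 to 1.17.
Slc16a1 (MCT1), the lactate transporter of most oxidative cells, had 134 and 197 FPKM in Sox4f/f, 69.1 FPKM in the library labelled Sox4-MKO 1 and 138 FPKM in that labelled Sox4-MKO 2. The latter lay between the controls, and the log2 fold change of -0.72 was not called. It was called without that library (-1.22) and with the replicate number as a block. Slc16a3 (MCT4), which exports lactate from glycolytic muscle fibres, had 0.96 and 1.72 FPKM in Sox4f/f and 17.6 and 2.24 FPKM in the others. Its log2 fold change of 1.75 was not called, and was 0.49 without the library labelled Sox4-MKO 1 and 3.01, and called, without the other.

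The second comparison set the muscle isoforms beside the ubiquitous ones within each library. The 5 muscle isoforms had a median log2 fold change of 1.09 and the other 26 tested genes one of -0.08, against -0.05 over all genes tested. Without the library labelled Sox4-MKO 1, the median of the 5 was 0.22, and without that labelled Sox4-MKO 2 it was 1.95. Of the 5, Pgam2 and Eno3 were called, and Aldoa and Pfkfb1 overlapped between the genotypes. The calls over all 31 genes changed with any 1 library left out, either control included. Those without each library labelled Sox4-MKO follow. Without the library labelled Sox4-MKO 1, limma called 0 genes higher and 8 lower (Slc2a8, Hk2, Gpi1, Pfkl, Pfkfb3, Pgk1, Pgam1 and Ldhb), against 15.1% of all genes tested. Without that labelled Sox4-MKO 2, 10 were called higher (Pfkm, Pfkfb4, Aldoa, Tpi1, Gapdh, Pgam2, Eno3, Ldha, Bpgm and Slc16a3) and 6 lower (Hk2, Pfkl, Pfkfb3, Pgam1, Ldhb and Slc16a1), against 17.5%. Hk2, Pfkl, Pfkfb3, Pgam1 and Ldhb were on both lists of lower genes, and none of them was called without Sox4f/f mouse 2. Each test behind these lists set 1 library against both controls. The spread of a gene came from its 2 controls, moderated toward a trend over all genes tested.
Pfkm held 21.6% and 20.2% of the FPKM of the phosphofructokinases in Sox4f/f, 59.9% in the library labelled Sox4-MKO 1 and 29.98% in that labelled Sox4-MKO 2. Pgam2 held 2.98% and 12.1% of the mutases in the controls, 78.8% in the first and 39.6% in the second of the other libraries. Eno3 held 2.60% and 4.23% of the enolases, against 38.8% and 14.2%. In all 3 steps both libraries labelled Sox4-MKO had a larger share of the muscle isoform than both controls, and the shares had their highest value in the library with the most muscle markers. A share also grows where another isoform is lower. In the library labelled Sox4-MKO 2, Pfkm had 52.4 FPKM against 42.2 and 47.7 in Sox4f/f, whereas Pfkl had 93.3 against 127 and 155. Aldolase could not be split in this way, since Aldoa held at least 99.9% of it everywhere. At 7 of the 31 tested genes (Slc2a5, Hk3, Pfkm, Pfkfb4, Pgam2, Eno3 and Slc16a3) the 4 libraries had the same order as the summed muscle markers, against 8.75% of all genes tested. Hk3 is among the 7, and it entered the test only through the group in which it was higher. The highest value was in the library labelled Sox4-MKO 1 at 20 of the 31 genes, against 31.7% of all genes tested. Several of these 20, such as Aldoa, Gapdh and Ldha, are abundant in muscle fibres as in most tissues, and the part of muscle RNA in their levels was not tested.

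**Figure D3:**
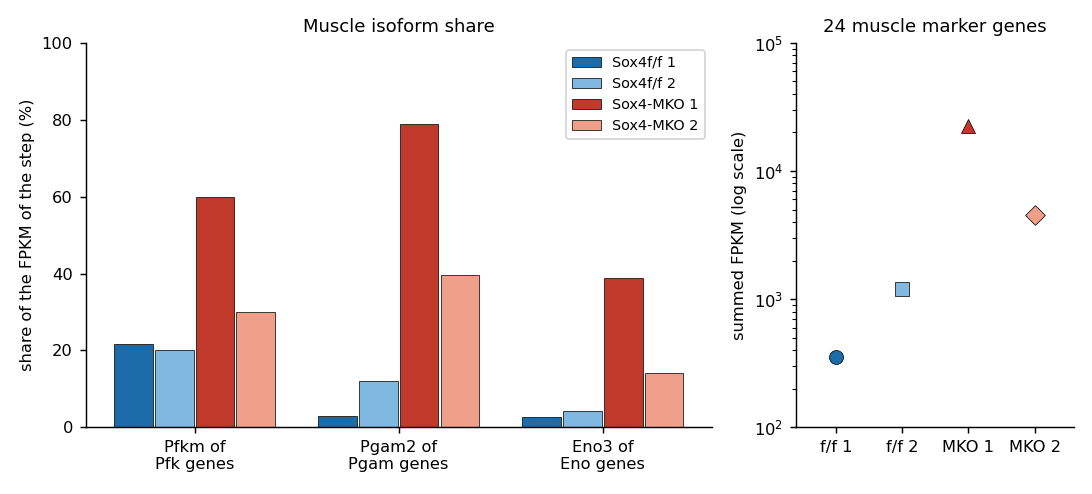
Left, share of the FPKM of 3 glycolytic steps that was held by the muscle isoform, in percent, with 1 bar per library. Right, summed FPKM of the 24 muscle marker genes on a log axis. The muscle isoforms hold up to 78.8% of a step in the library labelled Sox4-MKO 1 (red), where the markers sum to 22295 FPKM, and at most 21.6% in Sox4f/f.

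The third comparison followed the pathway step by step, with the isoforms of each step summed. In the library labelled Sox4-MKO 1, 11 of 13 steps were above both controls, led by phosphoglycerate mutase at 3.05 times, Gapdh at 2.26 times and aldolase at 2.11 times the Sox4f/f mean. Hexokinase (0.76 times) and the lactate transporters (0.52 times) were below both controls. In the library labelled Sox4-MKO 2, none of the 13 steps was above the Sox4f/f mean and 8 were below both controls. The sums are of FPKM as deposited, and this library had the lowest total (472062 FPKM, against 578011 and 544564 in Sox4f/f). Steps were not summed again after rescaling, so these counts hold for the deposited scale only. The lowest steps of the library labelled Sox4-MKO 2 were phosphoglycerate kinase (0.67 times), pyruvate kinase (0.68 times), Gpi1 (0.72 times) and hexokinase (0.75 times). Hexokinase was the one step at which both libraries labelled Sox4-MKO lay below both controls. On the deposited scale, the 2 libraries of that label thus differed in direction at most steps, and the genotypes were without overlap at hexokinase alone. For phosphoglycerate mutase, the sum was 148 and 185 FPKM in Sox4f/f, and 158 in the library labelled Sox4-MKO 2, where Pgam1 was lower and Pgam2 higher than in both controls.

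**Figure D4:**
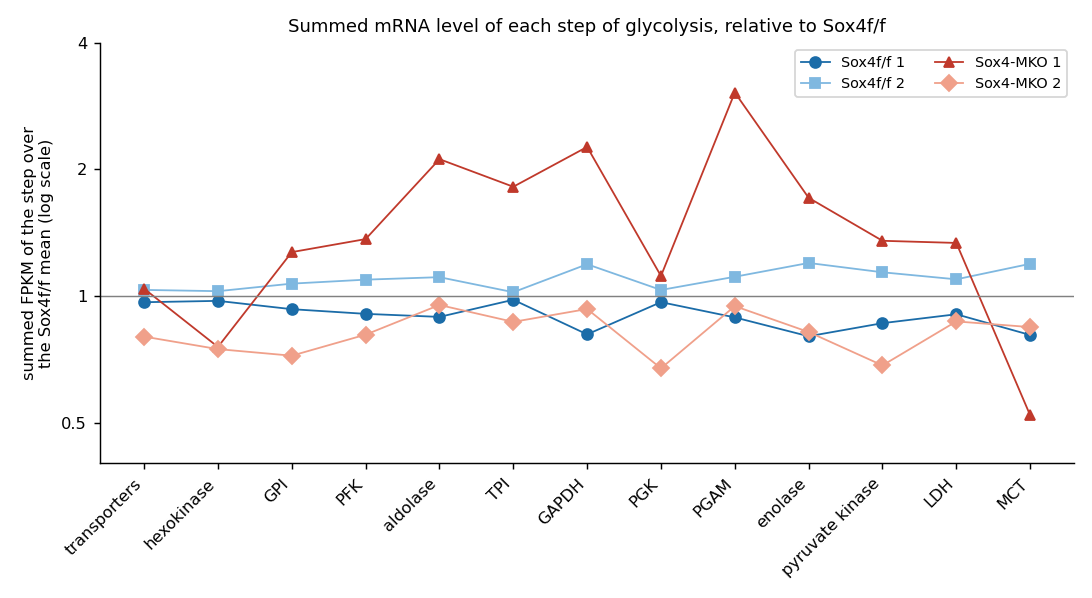
Summed FPKM of the isoforms of each step relative to the mean of the Sox4f/f libraries, on a log axis, from sugar transporters without the fructose transporter Slc2a5 to the monocarboxylate transporters (MCT), with 1 line per library. FPKM are as deposited, without rescaling to a common total. The library labelled Sox4-MKO 1 rises to 3.05 times at phosphoglycerate mutase (PGAM), that labelled Sox4-MKO 2 stays below 1 throughout, and both lie near 0.75 at hexokinase.

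The genes around the pathway were described from lists of 4 kinds. Of 22 further sugar transporters, glycolytic isoforms and lactate transport partners, 9 were tested and 1 was called, Ldhd, an enzyme that oxidises D-lactate in mitochondria. It had 78.8 and 81.1 FPKM in Sox4f/f versus 42.2 and 48.7, a log2 fold change of -0.80 (SE 0.13, adjusted p = 0.196 by limma). Basigin (Bsg), the partner of the lactate transporters at the cell surface, had 315 and 341 FPKM versus 289.8 and 278 and was not called. The liver and red cell pyruvate kinase Pklr and the germ cell isoforms Gapdhs, Pgk2 and Ldhc were listed at 0 in all 4 libraries.
All 8 genes of the pentose phosphate pathway, which branches off after hexokinase and supplies NADPH, were tested, with a median log2 fold change of 0.17. Pgd was called higher, with 84.3 and 129 FPKM in Sox4f/f versus 181 and 159.8, and Pgls, the enzyme just before it, was called lower, with 200.3 and 205 FPKM versus 114 and 129.8. Of the 12 genes that govern the entry of pyruvate into mitochondria, 1 was called. This was Pdk4, a kinase that switches off pyruvate dehydrogenase, which had 744 and 701 FPKM in Sox4f/f versus 412 and 536 (log2 fold change -0.62, SE 0.17, adjusted p = 0.231 by limma). The median of these 12 was 0.05.
Among 15 regulators of glucose use, Egln3, a prolyl hydroxylase that marks hypoxia-inducible factors for decay, was called higher, with 3.74 and 2.32 FPKM versus 11.1 and 5.66. The median of the 15 was 0.02, and none was called lower. In all, 5 of the 44 tested genes of these lists were called, against 16.2% of all genes tested.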

How the data were processed

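RNA sequencing of brown fat from 4 mice was analysed. Per the labels, Cufflinks 2.1.1 and Cuffdiff were used with build mm10, without a stated role or order. The aligner and gene annotation are not given in the sources used here. The authors deposited FPKM per gene symbol and library (55387 rows), with no counts, so no test on counts was made. The sample labels describe a column kit and a stranded library, whereas the methods name TRIzol and TruSeq.

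limma 3.58.1 in R 4.3.3 was fitted to log2(FPKM + 1) of the 12877 genes whose mean passed 1 FPKM in either genotype, with genotype as the only term, a trended prior and 2 residual degrees of freedom. p-values are two-sided, and intervals are at 95%. The deposited FPKM of isoforms were summed per step without a test. Coordinates are those of GENCODE M21 (GRCm38, the same assembly as mm10) by symbol, for all 34 genes. Depth was estimated from the lowest FPKM of 6741 genes with 1 transcript of at least 1500 nt, in a search from 4 starting values set beforehand. For Sox4f/f mouse 1 these starts led to 2 different values, and the median was taken. Such estimates depend on the starts chosen and cover counting error only. The labels name 2 mice per genotype and no batch.

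All 34 genes are accounted for, and a gene outside them is named where it was called or is a partner of one of them. The genes and lists were chosen with earlier results of these data known. The alternatives were a replicate block, each library left out, 4 scalings, 3 filters, 2 pseudocounts and limma without moderation. Deviations of equally numbered mice from their group means had a correlation of -0.012 across genes, so the numbers were not taken to pair the mice. Figures were drawn with matplotlib 3.10.9.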

Additional observations from a re-analysis of the deposited data

How the results depend on the processing

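Of the 10 genes called, 3 were higher and 7 lower. These counts were within 1.5 times under the replicate block (3 and 7, with Slc16a1 called and Slc2a1 not, and 14.8% of all genes tested called), the common median, quantile normalization, the other filters and both other pseudocounts. A common sum without skeletal muscle markers also evened out the unequal totals of the libraries and shifted the median of all genes by 0.22. It gave 6 higher and 1 lower, and 2058 and 258 over all genes tested. Without moderation limma called 1 higher (Hk3, tested only through its higher group) and 3 lower (Slc2a8, Hk2 and Pgam1), and 553 genes higher in all. With each library left out in turn, 0 to 10 of the genes were called higher and 0 to 8 lower, over all genes 433 to 1443 higher and 380 to 1015 lower, with 0 to 4 at an adjusted p under 0.05. The ratio of muscle markers was 5.80 to 37.8, highest without Sox4f/f mouse 2. The genes called lower were 0 without Sox4f/f mouse 2 and the genes called higher were 0 without the library labelled Sox4-MKO 1. Leaving out any library leaves a lone one in its genotype, which is assumed to vary like the other genotype. The cause of these differences was not tested.

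Directions turned only in genes that were not called. Under the common sum without muscle markers, log2 fold changes became 0.15 for Slc2a4, 0.029 for Hk1, 0.19 for Gpi1 and 0.10 for Pfkp. They became 0.047 for Pgk1, 0.11 for Eno1 and 0.21 for Pkm. Under quantile normalization they were -0.059 for Pfkfb2, 0.0076 for Eno1, 0.13 for Pkm and -0.10 for Fbp2, under the common median -0.014 for Pfkfb2, and without mitochondrially encoded genes and Ucp1 0.013 for Gpi1 and 0.030 for Pkm. With 1 library left out, values ranged from -0.38 to 0.65 for Slc2a3, from -0.28 to 0.084 for Slc2a4, from -0.47 to 0.35 for Gpi1, from -0.29 to 0.0054 for Pfkp and from -0.34 to 0.36 for Pfkfb2. They ranged from -0.062 to 1.09 for Aldoa, from -0.20 to 0.86 for Tpi1, from -0.076 to 1.20 for Gapdh, from -0.57 to 0.16 for Pgk1, from -0.43 to 0.14 for Eno1, from -0.53 to 0.45 for Pkm and from -0.14 to 0.21 for Fbp2. Rows listed at 0 in every library were left out of the fit without a filter. The files hold FPKM and no counts, so depth is an estimate, and changes in genes near 1 FPKM rest on few fragments.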
